A study of Homo sapiens with 12 samples.

Results

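The genes described here encode the machinery that carries proteins into the endoplasmic reticulum (ER) and on to the Golgi. They comprise 51 of the 22257 genes in the count tables, chosen by name: 12 genes of the SEC61 translocon and its partners, 5 of the signal peptidase, 8 of the signal recognition particle (SRP) and its receptor, 11 of the COPII coat, 7 of the COPI coat, and 8 cargo and retrieval receptors. They were measured by RNA sequencing in LN229, an established human glioblastoma cell line. Cells at 80% confluence were held for 24 hours in RPMI to which 10% dialyzed serum was added. The glucose in this medium was 10 mM (4 libraries), 1 mM with 5 mM acetate (4 libraries), or 1 mM without acetate (4 libraries). The line is a single cell culture model, and the labels do not say whether replicates came from separate cultures. A p therefore reflects only how far these libraries differ, which may be technical.

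Proteins that enter the secretory pathway carry a signal sequence, which the SRP binds while the ribosome is still translating. The SRP receptor hands the ribosome to the SEC61 channel in the ER membrane, and the signal peptidase cuts the signal sequence off inside the ER. Folded cargo leaves the ER in vesicles coated by COPII, and COPI coats the vesicles that bring escaped ER proteins and receptors back from the Golgi. Many of these genes are known targets of the unfolded protein response in mammalian cells.

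Levels are counts per megacount, usually written CPM, on library sizes scaled by TMM, edgeR's correction for composition, for 1 transcript per gene. A gene is called where its edgeR Benjamini-Hochberg adjusted p over the 14416 genes tested was under 0.05, and log2 fold changes are the first group named minus the second. All 51 genes passed the filter on low counts. Library totals were 24.4 M to 27.2 M counts (M, mega), and 10 of 12 glial and glioma markers exceeded 5 CPM in at least 1 condition, while the astrocyte marker GFAP averaged at most 1.14 CPM. Of the other markers examined, 3 of 7 neuron genes and 1 of 8 blood and endothelial genes exceeded 5 CPM. Within their groups 2 libraries, acetate replicate 1 and 1 mM glucose replicate 3, stood apart by a trend over transcript length. Across genes, which do not count as replicates, the Spearman correlation of their deviation with length was −0.481 and −0.487, against −0.179 to 0.229 in the other 10 libraries. Counts from overlapping genes on the opposite strand cannot be told apart, since the strand setting is not given in the sources used here. In GENCODE v29 the exons of 26 of the 51 genes overlap a gene on the other strand (SEC24A and SAR1B overlap each other), and 13 have pseudogenes named after them, among them SRP14, SRP9 and SEC63.

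The summed transcripts of each role were lower at 10 mM than at 1 mM glucose, though not those of every gene. Of the 51 genes, 40 were called lower and 2 higher at 10 mM glucose, where 67.5% of all genes tested were called, 33.8% lower and 33.7% higher. Their median log2 fold change was −0.58, against 0.00105 over all genes tested. Together these genes held 0.859 ± 0.00737% of each library's counts at 10 mM glucose, 1.12 ± 0.0213% with acetate, and 1.19 ± 0.0194% in the 1 mM libraries (SD, n = 4 each). In bulk RNA, fewer cells of a type and less RNA per cell cannot be told apart. Beside this, the 8 blood and endothelial markers summed to 19.02 to 23.1 CPM at 10 mM glucose, 62.95 to 70.2 CPM with acetate and 54.7 to 65.01 CPM at 1 mM glucose, almost all of it the lysosomal gene CD68, while HBB was at 0 and PTPRC near 0. The 7 neuron markers summed to 107 to 116, 79.7 to 91.1 and 83.6 to 104 CPM, with STMN2 at 0. The 12 glial and glioma markers summed to 6019 to 6127, 6094 to 6543 and 6491.5 to 7760 CPM in the same order. Single glial markers moved both ways at 10 mM against 1 mM glucose, such as PDGFRA (2.94) and OLIG2 (−1.56) on the log2 scale. The part of these lists in the results was not tested. In 41 of the 51 genes the libraries of both conditions did not overlap, against 61.5% of all genes. By size, 7 genes were at least 2-fold lower (SEC11C, SEC24D, TRAM1, SEC23B, SSR3, SEC63 and SSR4), against 6.81% of all genes, and 25 were at least 1.5-fold lower, against 15.6% of all genes. Scaling by library totals moved the median of all genes to 0.14, 63.3% of all calls were higher at 10 mM in place of 49.9%, and 35 of the 51 genes were called lower and 5 higher. The median of the 51 genes was then −0.44, and it was also −0.44 once each library's trend over length and GC content was removed.

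**Figure D1:**
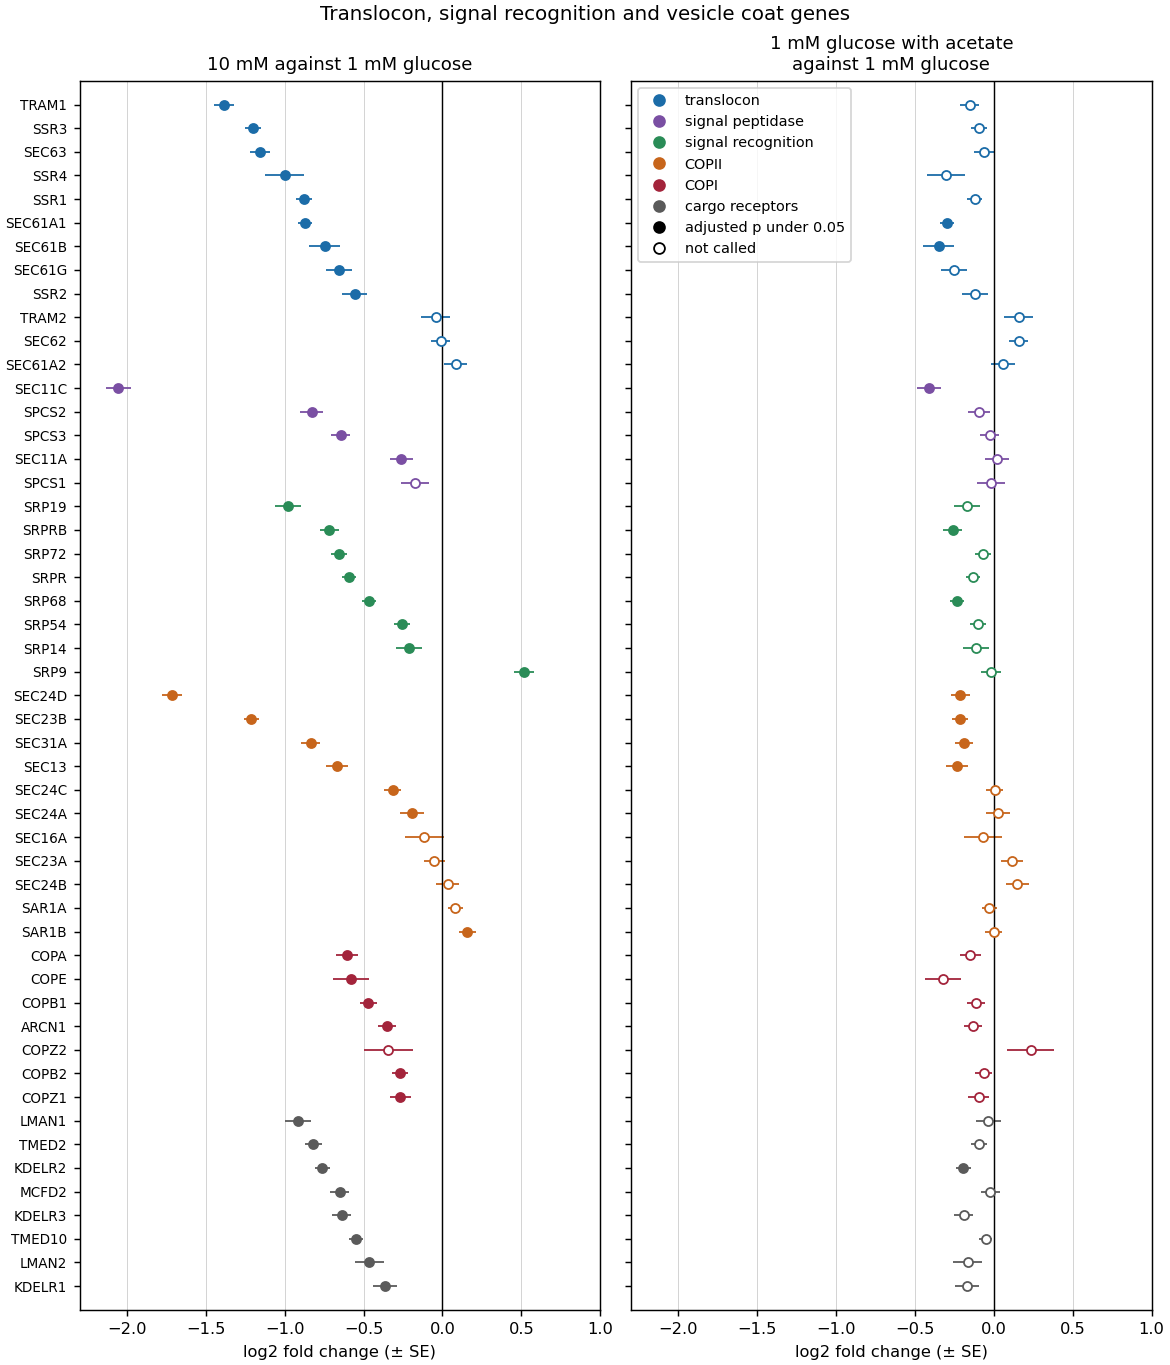
Log2 fold change with its standard error (x axis) of each of the 51 genes (y axis), for 10 mM against 1 mM glucose at left and for acetate against no acetate at 1 mM glucose at right, coloured by role, with filled points for genes called by edgeR. Nearly all points at left lie below 0, from −2.05 for SEC11C, and SRP9 at 0.52 is the highest, while at right none lies below −0.41.

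The translocon had the most negative median of the 6 roles, −0.81, with 9 of 12 genes called lower at 10 mM glucose and 0 higher (33.8% and 33.7% of all genes tested). TRAM1, a membrane protein beside the channel that helps nascent chains enter, changed most. TRAM1 had 172, 189, 174 and 187 CPM at 10 mM glucose, 452, 431, 409.7 and 405 CPM with acetate, and 475, 498, 427 and 488 CPM at 1 mM glucose. Every 10 mM library lay below every library of the other conditions, and the log2 fold change against 1 mM glucose was −1.39 ± 0.062 (SE, edgeR adjusted p = 7.8e-11). SSR3 had 152, 158, 154 and 161 CPM at 10 mM glucose, 347, 338, 329 and 328 CPM with acetate, and 352, 373, 333 and 377 CPM at 1 mM glucose. SSR3 is a subunit of the TRAP complex, which assists the channel, and its log2 fold change was −1.20 ± 0.052 (SE). SEC63 had 55.9, 58.8, 55.4 and 58.3 CPM at 10 mM glucose, 116, 121, 127 and 124 CPM with acetate, and 132, 135, 111 and 133 CPM at 1 mM glucose. SEC63 recruits the chaperone BiP to the lumenal side of the channel, and its libraries separated in the same way, with −1.16 ± 0.063 (SE) on the log2 scale. The other TRAP subunits fell too, SSR4 by 1.00, SSR1 by 0.88 and SSR2 by 0.56 on the log2 scale.

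The channel itself has an alpha, a beta and a gamma subunit, and all fell. SEC61A1, the pore-forming alpha subunit, had the highest CPM of the 51 genes with acetate and at 1 mM glucose. SEC61A1 had 458, 445, 462 and 444 CPM at 10 mM glucose, 665, 679, 684 and 661 CPM with acetate, and 856, 812, 799 and 836 CPM at 1 mM glucose. The 3 conditions did not overlap, and the log2 fold change for 10 mM against 1 mM glucose was −0.87 ± 0.044 (SE). SEC61B changed by −0.75 ± 0.10 and SEC61G by −0.65 ± 0.082 (SE). Both were called in all 25 alternatives, but there their smallest falls were −0.44 and −0.30. SEC61A2, the paralogue of the alpha subunit, was not called. SEC61A2 had 25.04, 22.9, 22.6 and 23.2 CPM at 10 mM glucose, 26.6, 21.8, 21.5 and 22.3 CPM with acetate, and 24.1, 20.98, 22.1 and 21.3 CPM at 1 mM glucose. Its conditions overlapped (log2 fold change 0.083 ± 0.075, SE, edgeR adjusted p = 0.34), but it was called higher, at 0.23, with library totals, and at 0.19 after each library's trend over length and GC content was removed. The transcript marked for SEC61A2 is a noncoding one, and the coding transcript with most reads had 60.5% of its total. SEC62, the partner of SEC63, and TRAM2 were not called either (−0.01 ± 0.06 and −0.043 ± 0.092, SE), though TRAM2 was called lower, at −0.20, with the length and GC trend removed.

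Per kilobase of transcript, with lengths from GENCODE v29, the TRAP subunit SSR2 had the highest level of the 51 genes. It averaged 320.2 CPM per kilobase at 10 mM glucose, 433 with acetate, and 471 in 1 mM libraries. SEC61G, the smallest channel subunit, followed with 191, 252 and 301 CPM per kilobase, and SEC61A2 had 10.7, 10.6 and 10.1. The lowest was COPZ2 of the COPI coat, at 4.37, 6.51 and 5.53 CPM per kilobase. These levels rest on 1 transcript per gene, and their order between neighbours was not tested.

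The signal peptidase showed the largest single change, in 1 of its alternative catalytic subunits. SEC11C had 36.1, 40.4, 39.6 and 41.1 CPM at 10 mM glucose, 139.9, 126, 118 and 107 CPM with acetate, and 167, 152, 167 and 167 CPM at 1 mM glucose. SEC11C was 4.15-fold lower at 10 mM than at 1 mM glucose, the 3 conditions did not overlap, and the log2 fold change was −2.05 ± 0.078 (SE, edgeR adjusted p = 1.4e-11). SEC11A, the other catalytic subunit, moved much less. SEC11A had 133, 129.8, 134 and 136 CPM at 10 mM glucose, 186, 164, 146 and 149 CPM with acetate, and 153, 147, 174 and 163 CPM at 1 mM glucose. Its log2 fold change was −0.26 ± 0.074 (SE), and this call ended with library totals, at −0.12. The accessory subunits SPCS2 and SPCS3 fell as well. SPCS2 had 19.1, 19.3, 19.3 and 21.03 CPM at 10 mM glucose, 37.3, 32.7, 29.8 and 31.2 CPM with acetate, and 32.002, 34.9, 36.5 and 36.3 CPM at 1 mM glucose. SPCS3 had 144, 157, 149.8 and 161 CPM at 10 mM glucose, 232, 234, 232 and 242 CPM with acetate, and 234, 263, 217 and 244 CPM at 1 mM glucose. The 10 mM libraries of both genes lay below all others, with log2 fold changes of −0.83 ± 0.074 and −0.64 ± 0.06 (SE). SPCS1, which overlaps genes on the opposite strand, had −0.17 ± 0.087 (SE, edgeR adjusted p = 0.092) and was called without 1 mM replicate 2 (−0.24) or acetate replicate 1 (−0.17). Over the 25 alternatives its values ran from −0.24 to 0.056, so its sign was not fixed.

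**Figure D2:**
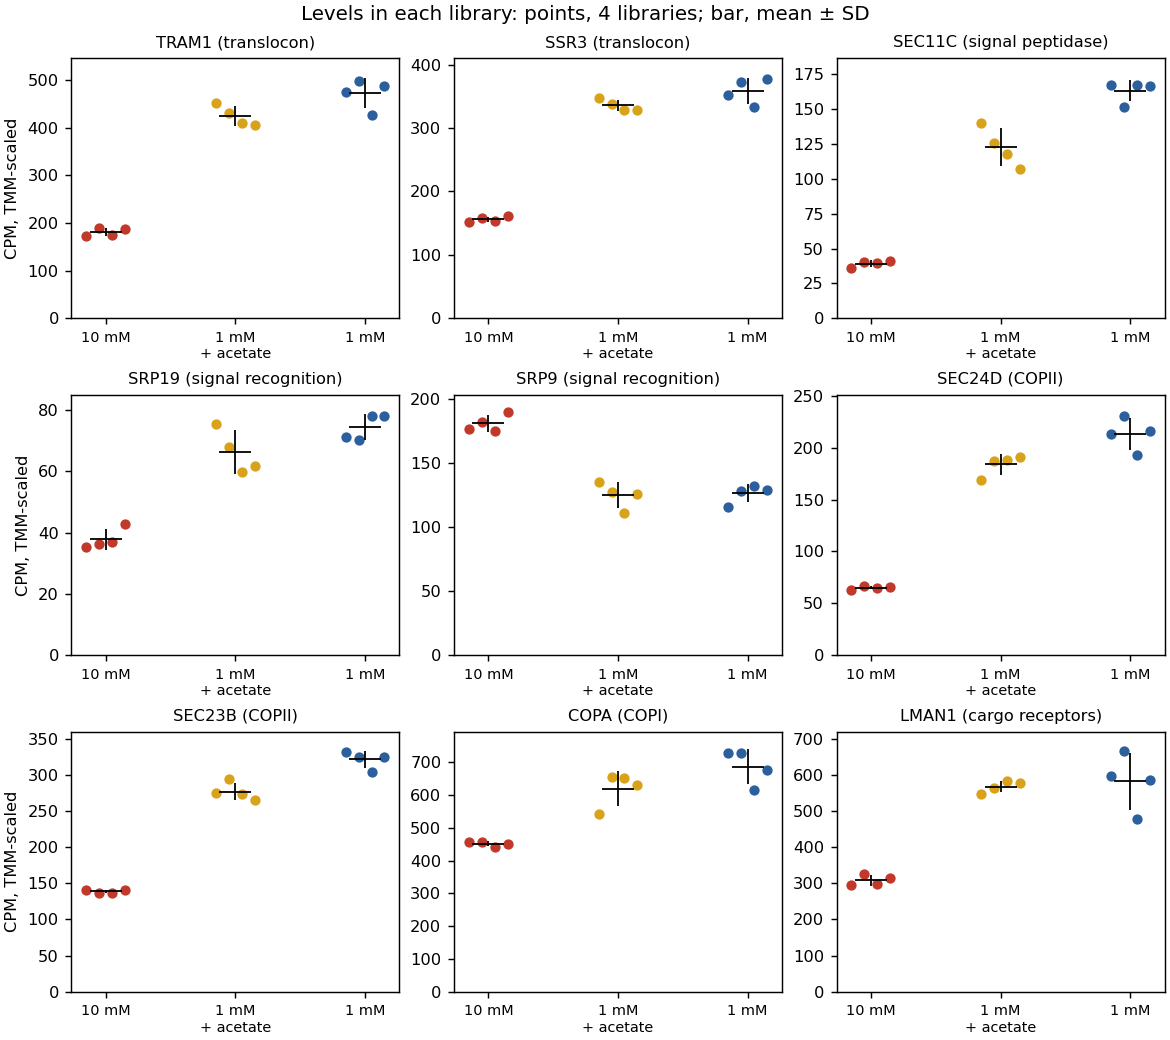
TMM-scaled CPM (y axis, from 0) of 9 genes in each of the 12 libraries by condition (x axis), with mean ± SD of the 4 libraries as bars. In 8 panels the 10 mM points are the lowest, at 36.1 to 41.1 CPM for SEC11C against 152 to 167 CPM at 1 mM glucose, while in the SRP9 panel they are the highest.

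Genes of the signal recognition particle and its receptor were called lower in 7 of 8 cases (33.8% of all genes tested were), and SRP9 rose. The particle is an RNA with bound proteins, of which SRP54 reads the signal sequence, SRP68 and SRP72 bind as a pair, SRP19 helps the RNA fold, and SRP9 with SRP14 forms the Alu domain that pauses translation. SRP19 had 35.2, 36.4, 36.8 and 42.9 CPM at 10 mM glucose, 75.7, 68.03, 59.7 and 61.8 CPM with acetate, and 71.4, 70.3, 78.1 and 78.2 CPM at 1 mM glucose. The 10 mM libraries were the lowest 4, and SRP19 had the largest change of this role, −0.98 ± 0.082 on the log2 scale (SE). SRP72 had 167, 174, 172 and 182 CPM at 10 mM glucose, 256, 267, 262 and 259.9 CPM with acetate, and 274, 284, 253 and 284 CPM at 1 mM glucose. SRP72 changed by −0.66 ± 0.051 and its partner SRP68 by −0.47 ± 0.045 (SE), without overlap of 10 mM and 1 mM libraries in either gene. SRPRB had 67.5, 69.03, 68.5 and 67.4 CPM at 10 mM glucose, 103, 95.5, 89.2 and 86.01 CPM with acetate, and 110.1, 107, 119.9 and 111 CPM at 1 mM glucose. SRPRB, the membrane-anchored beta subunit of the receptor, had a log2 fold change of −0.72 ± 0.06, and SRPR, the alpha subunit that docks the particle, had −0.59 ± 0.044 (SE).

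Of the Alu domain genes SRP9 was the only gene of this role called higher, and the lower call of SRP14 was not stable. SRP9 had 177, 183, 175 and 189.9 CPM at 10 mM glucose, 136, 128, 111 and 126 CPM with acetate, and 116, 129, 133 and 129 CPM at 1 mM glucose. SRP9 was higher in every 10 mM library than in any other, with a log2 fold change of 0.52 ± 0.064 against 1 mM glucose (SE, edgeR adjusted p = 5.2e-06), and pseudogene reads could not be told from its own. SRP14 had 192, 187, 197 and 197 CPM at 10 mM glucose, 243, 211, 191 and 182 CPM with acetate, and 215, 205, 253 and 222 CPM at 1 mM glucose. For SRP14 the log2 fold change was −0.21 ± 0.084 (SE, edgeR adjusted p = 0.037), a call that ended without 1 mM replicate 3 (−0.15) or 4 (−0.22), without any 10 mM library in turn (−0.20 to −0.22), with library totals (−0.07) and with the replicate number as a block (−0.21). It took the other sign, 0.059, once the length and GC trend was removed. SRP54 changed by −0.26 ± 0.051 (SE), which ended with library totals (−0.12).

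COPII genes were divided: 6 of 11 were called lower, 1 higher and 4 not at all, with a median of −0.19 (33.8% of all genes tested were called lower and 33.7% higher). SEC24D, a cargo-binding subunit of the inner coat, fell most. SEC24D had 62.97, 66.2, 64.8 and 65.7 CPM at 10 mM glucose, 169, 188, 188 and 191 CPM with acetate, and 213, 231, 193 and 216 CPM at 1 mM glucose. It was 3.28-fold lower at 10 mM than at 1 mM glucose, with a log2 fold change of −1.72 ± 0.062 (SE, edgeR adjusted p = 8.1e-12) and no overlap between the 3 conditions. SEC23B had 141, 136, 137 and 141 CPM at 10 mM glucose, 274, 294, 274 and 265 CPM with acetate, and 331, 324, 304 and 325 CPM at 1 mM glucose. SEC23B, which activates the GTPase SAR1 and pairs with SEC24, had −1.21 ± 0.049 (SE) on the log2 scale, again without overlap. SEC31A had 179.8, 184, 179 and 178 CPM at 10 mM glucose, 259, 291, 287 and 291 CPM with acetate, and 332, 340.2, 291 and 322 CPM at 1 mM glucose. SEC31A and SEC13 form the outer cage of the coat, and they changed by −0.84 ± 0.058 and −0.67 ± 0.071 (SE).

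Paralogues of these subunits moved less. SEC24A had 110.2, 115, 114 and 115 CPM at 10 mM glucose, 118, 134, 136 and 140.1 CPM with acetate, and 135, 146, 113 and 125 CPM at 1 mM glucose. Its 10 mM and 1 mM libraries overlapped, its log2 fold change was −0.19 ± 0.075 (SE), and the call ended without 1 mM replicate 1 (−0.17) or 2 (−0.13), without any 10 mM library in turn (−0.18 to −0.20) and with library totals (−0.05). SEC24B had 58.3, 59.5, 55.6 and 57.7 CPM at 10 mM glucose, 56.95, 62.2, 66.5 and 65.03 CPM with acetate, and 57.002, 62.6, 48.9 and 57.6 CPM at 1 mM glucose. SEC24B overlapped between conditions and was not called (0.032 ± 0.072, SE), although library totals gave a call at 0.17, and SEC24C was called lower at −0.32 ± 0.052 (SE). SEC23A had 93.2, 100.4, 93.7 and 103 CPM at 10 mM glucose, 103, 111, 111 and 113 CPM with acetate, and 98.9, 112, 88.4 and 105 CPM at 1 mM glucose. SEC23A overlapped between conditions and was not called (−0.05 ± 0.069, SE, edgeR adjusted p = 0.532). The scaffold SEC16A, which marks ER exit sites, had −0.11 ± 0.12 (SE) and was not called, but was called lower without both libraries that stood apart (−0.20) and with the length and GC trend removed (−0.33). Of the GTPases that start coat assembly, SAR1B was called higher (0.16 ± 0.053, SE), a call that ended at 0.13 without 1 mM replicate 1. Its values ran from 0.13 to 0.45 over the 25 alternatives. SAR1A had 0.082 ± 0.05 (SE), called only with library totals (0.22).

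Of the 7 COPI genes listed, 6 were called lower and 0 higher (33.8% of all genes tested were called lower). Their log2 fold changes lay between −0.60 and −0.27, with a median of −0.35. The gamma subunits of the coat, counted among the other genes below, lay outside this range. COPG had −0.81 ± 0.046 and COPG2 −0.16 ± 0.052 (SE), and both were called lower. COPA had 458, 456, 442 and 452 CPM at 10 mM glucose, 542, 655, 653 and 630.1 CPM with acetate, and 729, 728, 615 and 676 CPM at 1 mM glucose. COPA, the alpha subunit of the coat's outer layer, changed by −0.60 ± 0.069 (SE), and acetate replicate 1 and 1 mM replicate 3 were the lowest of their conditions. COPE had 81.05, 82.6, 96.2 and 81.9 CPM at 10 mM glucose, 121, 94.1, 101 and 91.5 CPM with acetate, and 132, 106, 155 and 116 CPM at 1 mM glucose. COPE, the epsilon subunit, overlapped between acetate and both other conditions but not between 10 mM and 1 mM glucose (log2 fold change −0.58 ± 0.11, SE). COPB1 had 186, 194, 183 and 199 CPM at 10 mM glucose, 239, 250.4, 242 and 244 CPM with acetate, and 259, 282, 242 and 274 CPM at 1 mM glucose. COPB1, a beta subunit of the inner layer, had −0.47 ± 0.054 (SE), with the 10 mM libraries below all others. ARCN1 (delta), COPB2 (beta prime) and COPZ1 (zeta) had log2 fold changes of −0.35, −0.27 and −0.27, and the COPZ1 call ended with library totals (−0.13). COPZ1 had 177, 167, 178 and 169 CPM at 10 mM glucose, 216, 201, 180.3 and 181 CPM with acetate, and 199.8, 199.6, 227 and 205 CPM at 1 mM glucose. The 10 mM libraries of COPZ1 were the lowest 4. COPZ2 had 3.37, 4.28, 4.16 and 3.82 CPM at 10 mM glucose, 6.25, 6.10, 6.13 and 4.84 CPM with acetate, and 5.37, 3.24, 5.77 and 5.42 CPM at 1 mM glucose. COPZ2, the other zeta subunit, overlapped between 10 mM and 1 mM glucose and was not called (−0.34 ± 0.16, SE, called at −0.50 without 1 mM replicate 2).

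All 8 cargo and retrieval receptors were called lower at 10 mM glucose, with a median of −0.65, and the 10 mM and 1 mM libraries did not overlap in any of them. Of all genes tested 33.8% were called lower and 61.5% did not overlap. LMAN1 is a lectin that, with MCFD2, carries glycoproteins such as coagulation factors out of the ER. LMAN1 had 294, 325, 298 and 316 CPM at 10 mM glucose, 547, 565, 583 and 578 CPM with acetate, and 597, 667, 477 and 587 CPM at 1 mM glucose. LMAN1 changed by −0.92 ± 0.081 and MCFD2 by −0.65 ± 0.061 (SE), and the lectin LMAN2 by −0.46 ± 0.092. TMED2 had 277, 279, 281 and 294 CPM at 10 mM glucose, 498, 465, 449 and 453 CPM with acetate, and 489, 514, 471 and 519 CPM at 1 mM glucose. TMED2 and TMED10, p24 proteins that load both kinds of vesicle, had −0.82 ± 0.052 and −0.55 ± 0.044 (SE). The KDEL receptors return escaped ER chaperones such as BiP, and their change was largest for KDELR2. KDELR2 had 339, 335, 329 and 344 CPM at 10 mM glucose, 534, 502, 474 and 487 CPM with acetate, and 562, 559.6, 580.0 and 583 CPM at 1 mM glucose. KDELR2 had −0.76 ± 0.049, KDELR3 −0.64 ± 0.062 and KDELR1 −0.37 ± 0.076 (SE). BiP itself (HSPA5) had 1183 ± 11.97 CPM at 10 mM and 13042 ± 489 CPM at 1 mM glucose (SD, n = 4 each), a log2 fold change of −3.46 ± 0.055 (SE), larger in size than that of any of the 51 genes.

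**Figure D3:**
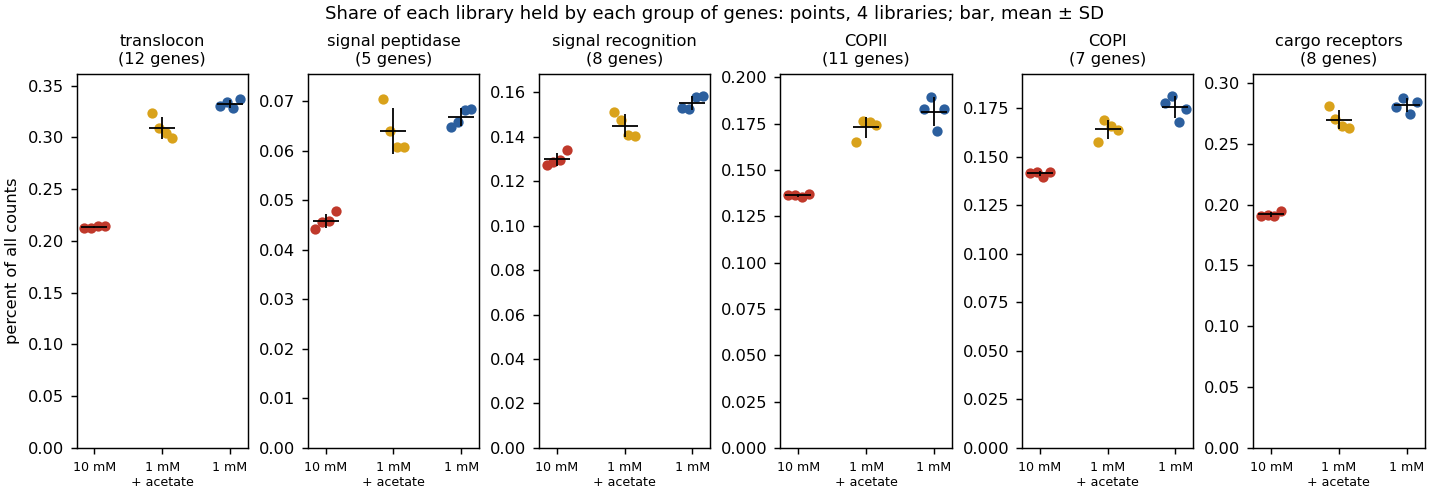
Percent of all counts in each library (y axis, from 0) held by the genes of each of the 6 roles, for the 3 conditions (x axis), with mean ± SD of 4 libraries. In every role the 10 mM libraries are the lowest: the translocon held 0.213 ± 0.000960% at 10 mM glucose, 0.309 ± 0.0105% with acetate, and 0.332 ± 0.00405% in 1 mM libraries (SD, n = 4 each).

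The ratio of 2 paralogues within a library does not depend on how the library is scaled, and it differed between conditions in several pairs. Of 11 fixed pairs, 8 had log2 ratios that did not overlap between 10 mM and 1 mM glucose. Of all single genes tested 61.5% did not overlap in this comparison. No share over other pairs of genes was taken, so the count of 8 cannot be called particular to paralogues. These ratios are given as descriptions, with no test. SEC11C over SEC11A was −1.76 ± 0.083 at 10 mM glucose, −0.39 ± 0.071 with acetate, and 0.038 ± 0.076 in 1 mM libraries (log2, SD, n = 4 each). In linear terms SEC11C had 0.296 times the CPM of SEC11A at 10 mM glucose and 1.03 times at 1 mM glucose. SEC24D over SEC24A was −0.81 ± 0.0094, 0.48 ± 0.03 and 0.72 ± 0.07 in the same order of conditions. SEC23B over SEC23A was 0.51 ± 0.079, 1.34 ± 0.09 and 1.67 ± 0.11. In all 3 of these pairs the conditions were fully separate, with acetate between the others.

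TRAM2 had 287, 269, 262 and 261 CPM at 10 mM glucose, 254, 318, 335 and 332 CPM with acetate, and 296, 309.5, 239 and 268 CPM at 1 mM glucose. These values of TRAM2 overlapped between 10 mM and 1 mM glucose while those of TRAM1 did not, and the ratio TRAM2 over TRAM1 ran the other way, at 0.58 ± 0.11, −0.46 ± 0.26 and −0.77 ± 0.10, so that TRAM2 had the higher CPM of the pair at 10 mM glucose and TRAM1 at 1 mM glucose. SEC61A2 over SEC61A1 was −4.27 ± 0.067, −4.87 ± 0.16 and −5.22 ± 0.07. KDELR1 had 108, 105, 109 and 106 CPM at 10 mM glucose, 130.4, 123, 123 and 114 CPM with acetate, and 138, 121, 162 and 131 CPM at 1 mM glucose. KDELR3 had 35.9, 35.1, 38.1 and 36.1 CPM at 10 mM glucose, 52.5, 48.1, 49.8 and 47.7 CPM with acetate, and 53.1, 53.1, 62.4 and 57.5 CPM at 1 mM glucose. Both were lowest at 10 mM glucose, by less than KDELR2. The KDEL receptor ratios moved less than those of the translocon pairs, with KDELR2 over KDELR1 at 1.65 ± 0.047, 2.03 ± 0.059 and 2.06 ± 0.17 and KDELR3 over KDELR1 at −1.56 ± 0.036, −1.31 ± 0.036 and −1.28 ± 0.11. SEC24B over SEC24A differed by 0.22 between 10 mM and 1 mM glucose without overlap. The ratios SEC24C over SEC24A, SAR1B over SAR1A and COPZ2 over COPZ1 overlapped between 10 mM and 1 mM glucose, with differences of −0.13, 0.077 and −0.048.

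**Figure D4:**
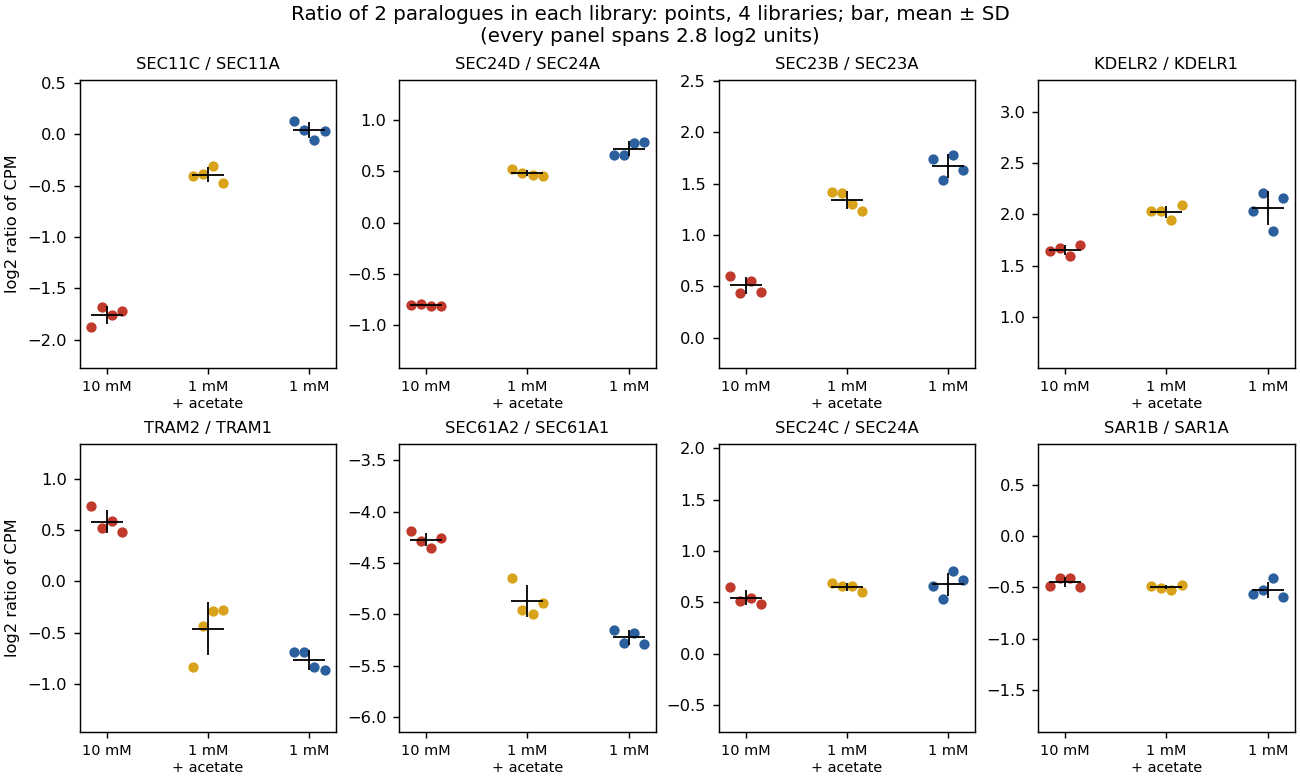
Log2 ratio of the CPM of 2 paralogues (y axis, the same span in every panel) in each library by condition (x axis), with mean ± SD of 4 libraries as bars. For SEC11C, SEC24D and SEC23B over their partners the 10 mM points lie lowest and acetate between, TRAM2 and SEC61A2 over their partners lie highest at 10 mM, and SEC24C over SEC24A and SAR1B over SAR1A overlap between conditions.

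With acetate at 1 mM glucose a small part of these genes were lower, and by little. Of the 51 genes 10 were called lower and 0 higher with acetate, where 13.7% of all genes tested were called, 7.09% lower and 6.65% higher. The median log2 fold change was −0.10, against 0.00198 over all genes, and no called gene differed by 1.5-fold or more (2.64% of all genes did). In 10 of the 51 the acetate and 1 mM libraries did not overlap (15.6% of all genes). These were 8 of the called genes with SRPR and KDELR3, which were not called, while the called SEC61B and SEC13 overlapped. The lower genes were SEC61A1 and SEC61B (translocon), SEC11C (signal peptidase), SRP68 and SRPRB (signal recognition), SEC23B, SEC24D, SEC31A and SEC13 (COPII) and KDELR2 (retrieval receptor). None of the 7 COPI genes listed was called as reported, though the gamma subunit COPG, counted among the other genes, was lower (−0.20 ± 0.045, SE). Of the 7, COPA (−0.14), COPB1 (−0.14) and COPE (−0.31) were called lower without both libraries that stood apart. These (−0.17, −0.15 and −0.25) and ARCN1 (−0.16) were called lower with the length and GC trend removed. Without 1 mM replicate 3 alone COPA (−0.20) and COPB1 (−0.15) were called, and COPE without acetate replicate 1 (−0.42) or 1 mM replicate 2 (−0.40). Against the same 1 mM libraries, the log2 fold changes of the 10 lower genes at 10 mM glucose ran from −2.05 for SEC11C to −0.47 for SRP68.

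SEC11C had the largest change of these, −0.41 ± 0.074 (SE, edgeR adjusted p = 0.0022), and all 4 acetate libraries were below all 1 mM libraries, at 107 to 139.9 against 152 to 167 CPM. SEC61A1 had −0.30 ± 0.044 (SE, edgeR adjusted p = 5.9e-04), the smallest p of the 10. SRP68 had 237, 234, 239 and 245 CPM at 10 mM glucose, 275, 293, 276 and 277 CPM with acetate, and 333, 317, 337 and 333 CPM at 1 mM glucose. For SRP68 the acetate libraries were again below the 1 mM libraries without overlap (−0.23 ± 0.045, SE, edgeR adjusted p = 0.0034). The calls of these 3 genes held in every one of the 25 alternatives. SEC23B (−0.22 ± 0.049), SRPRB (−0.26 ± 0.059) and KDELR2 (−0.19 ± 0.048, SE) did not overlap between acetate and 1 mM libraries either, and SEC23B and SRPRB lost their calls only when the fit held just the 8 libraries compared (−0.21 and −0.25).

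The other acetate calls depended on scaling and on single libraries. KDELR2, SEC24D, SEC61B, SEC13 and SEC31A were each lower in every alternative, but not always past the threshold. All 5 calls ended with library totals, where values ran from −0.31 for SEC61B to −0.15 for SEC31A, and when the fit held only the 8 libraries compared. KDELR2 also lost its call without acetate replicate 3 (−0.17) or 4 (−0.18) or 1 mM replicate 4 (−0.18). SEC24D (−0.21 ± 0.06, SE) lost it without acetate replicate 2 or 3 (−0.22 each) or 1 mM replicate 1 (−0.21), 2 (−0.17) or 4 (−0.21). SEC61B (−0.35 ± 0.10, SE) lost it without acetate replicate 2 (−0.33), 3 (−0.29) or 4 (−0.31) or 1 mM replicate 3 (−0.30) or 4 (−0.33), and with the replicate number as a block (−0.35). For the cage proteins more alternatives mattered. SEC13 (−0.23 ± 0.07, SE) lost it without any of acetate replicates 2 to 4 (−0.20 to −0.23), 1 mM replicate 1 (−0.25), 3 (−0.17) or 4 (−0.23), or any 10 mM library (−0.23), and with no filter on low counts (−0.23). SEC31A (−0.19 ± 0.058, SE) lost it without any acetate library (−0.15 to −0.20), 1 mM replicate 1 (−0.17), 2 (−0.16) or 4 (−0.19), or any 10 mM library (−0.19). The SEC31A call also ended with no filter (−0.19) and with the replicate number as a block (−0.19).

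The number of acetate calls also moved with the trend over transcript length. It was 10 lower and 0 higher as reported, 22 lower and 1 higher without both libraries that stood apart, and 27 lower and 2 higher once the trend over length and GC content was taken out. Both longer lists held all 10 reported genes. Without both libraries 3728 of all genes tested were called for acetate, and with the trend removed 3964, in place of 1980. Leaving out 1 mM replicate 4 gave 5 lower genes, acetate replicate 2 gave 6, acetate replicate 3 gave 5 and acetate replicate 4 gave 6. With library totals the count was 5 lower and 1 higher, and 65.2% of all calls were higher with acetate in place of 48.4%. The highest value among the 51 genes was that of COPZ2, 0.23 ± 0.15 (SE, edgeR adjusted p = 0.338), which was not called.

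Against 1 mM glucose with acetate, 10 mM glucose gave 40 lower and 2 higher calls among the 51 genes, where 62.8% of all genes were called, 31.8% lower and 31% higher (with library totals 60.8% of all calls were higher in place of 49.4%, and 31 of the 51 genes were lower and 3 higher). Their median was −0.44. SEC11C (−1.64 ± 0.077), SEC24D (−1.50 ± 0.061), TRAM1 (−1.23 ± 0.061), SSR3 (−1.11 ± 0.052) and SEC63 (−1.10 ± 0.063, SE) were at least 2-fold lower (5.51% of all genes were), and SRP9 (0.53 ± 0.064, SE) and SAR1B (0.16 ± 0.053, SE) were higher. The SAR1B call ended without acetate replicate 3 or 4 (0.14 each), and its values ran from 0.14 to 0.41 over the 25 alternatives. The libraries did not overlap in 43 of the 51 genes (61% of all genes). Of the 42 calls, 31 held in all 25 alternatives. COPE was not called (−0.26 ± 0.11, SE, edgeR adjusted p = 0.063) but was called lower in 9 of the 25, among them without acetate replicate 4 (−0.30), 1 mM replicate 2 or 3 (−0.26 each) or 10 mM replicate 3 (−0.32). SEC23A (−0.16 ± 0.069, SE, edgeR adjusted p = 0.0504) was not called either but was called lower in 10 of the 25. TRAM2 (−0.20 ± 0.092, SE, edgeR adjusted p = 0.072) was not called but was called lower in 6. COPZ1 (−0.17 ± 0.065) and KDELR1 (−0.20 ± 0.076, SE) each lost their call in 8 of the 25. For COPZ1 these included leaving out acetate replicate 1 (−0.12) or 2 (−0.16) or 10 mM replicate 2 (−0.15) or 4 (−0.16), and for KDELR1 acetate replicate 1 (−0.17), 2 or 3 (−0.20 each) or any 10 mM library (−0.19 to −0.21). SEC62 (−0.17 ± 0.06) and COPZ2 (−0.58 ± 0.15, SE) were called lower here, with −0.01 and −0.34 against 1 mM glucose, where they were not called. The SEC62 call ended without acetate replicate 4 (−0.15) or 10 mM replicate 1 (−0.15) or 3 (−0.16), or with library totals (−0.06).

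Promoter sequences of these genes were searched for motifs of the unfolded protein and amino acid responses, because many of the genes moved together, and a match is given here as a description. The windows are RefSeq's, on GRCh38.p14, from 250 bases before to 50 bases after the first listed start, and 46 of the 51 genes matched (not SRPR, KDELR2, SPCS1, TRAM1 and SEC24D). The UPRE, TGACGTGG, is bound by XBP1, ATF6 and CREB3-family factors, and it was searched on both strands. It occurred in 9 of the 46 windows (19.6%), against 217 of 27305 windows (0.795%) of all genes in the table and 93 of 9903 (0.939%) of the genes tested here. No window held the ERSE (CCAAT and CCACG separated by 9 bases, 0.0806% of all windows, HSPA5 among them) or the ERSE-II (ATTGG and CCACG separated by 1 base, 0.0549%). The CARE of ATF4 targets, TGATGNAA, occurred in MCFD2 and SRPRB (4.35%, against 3.67% of all windows and 1.82% of the 9903 genes tested here). None of these motifs overlapped another in a member's window.

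The 9 stretches with the UPRE are shown because this motif is the most frequent of the 4 in these windows, with the match in capitals and 20 bases on each side, or those up to the window's end for COPB2, 5′ to 3′ on the strand of the gene. Capitals that read CCACGTCA mark the motif on the opposite strand.
COPA: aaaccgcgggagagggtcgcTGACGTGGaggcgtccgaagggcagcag
COPB1: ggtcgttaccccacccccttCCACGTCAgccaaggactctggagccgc
COPB2: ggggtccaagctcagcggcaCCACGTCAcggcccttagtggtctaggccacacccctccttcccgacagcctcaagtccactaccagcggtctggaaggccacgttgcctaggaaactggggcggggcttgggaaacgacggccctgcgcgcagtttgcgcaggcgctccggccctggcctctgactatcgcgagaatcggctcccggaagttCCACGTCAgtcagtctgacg
SRP19: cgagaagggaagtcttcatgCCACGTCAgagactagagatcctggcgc
KDELR3: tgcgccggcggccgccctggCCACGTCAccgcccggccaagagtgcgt
SEC24A: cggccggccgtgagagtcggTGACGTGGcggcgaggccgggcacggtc
SEC16A: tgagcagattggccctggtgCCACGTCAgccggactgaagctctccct
SEC23A: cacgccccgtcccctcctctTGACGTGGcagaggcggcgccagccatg
SEC62: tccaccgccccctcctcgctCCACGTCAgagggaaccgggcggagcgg

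They lie at chr1:160343218-160343265 (- strand) for COPA, chr11:14499832-14499879 (- strand) for COPB1, chr3:139389631-139389863 (- strand) for COPB2, chr5:112861155-112861202 (+ strand) for SRP19, chr22:38468030-38468077 (+ strand) for KDELR3 and chr5:134648586-134648633 (+ strand) for SEC24A. Those of the remaining genes lie at chr9:136484698-136484745 (- strand) for SEC16A, chr14:39103212-39103259 (- strand) for SEC23A and chr3:169966770-169966817 (+ strand) for SEC62. COPB2 carried the motif at both ends of its stretch, and its second match and those of COPA and SEC16A lay after the start, while that of SEC23A spanned it. The first 6 of these genes were called lower at 10 mM glucose and the last 3 were not called, and the median log2 fold change of the 9 was −0.27. The 37 genes with a window and no UPRE had a median of −0.58, with 30 called lower and 2 higher, and they include SEC11C, SEC23B and SSR3. Of all genes tested 33.8% were called lower and 33.7% higher. Among the 93 genes tested with a UPRE, 38 (40.9%) were called lower and 25 higher, with a median of −0.083. Over any listed start, an alternative chosen after seeing the data, the UPRE was found in 11 of the 46 genes, with SSR3 and SSR4 added, and in 0.927% of all genes. Binding was not measured.

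Other genes of the same steps, 81 in all, were read from the same fit. At 10 mM against 1 mM glucose 51 were called lower, 10 higher and 20 not called, with a median of −0.31. Of all genes tested 33.8% were called lower and 33.7% higher. Apart from HSPA5 the largest falls were CTAGE5 (−2.13 ± 0.07), which acts at ER exit sites for large cargo, and CNIH (−1.27 ± 0.055, SE), a cornichon cargo receptor. CTAGE5 averaged 14.8 ± 1.04 CPM at 10 mM glucose, 52.4 ± 1.36 CPM with acetate, and 65.01 ± 5.07 CPM in 1 mM libraries (SD, n = 4 each). The largest rises were SEC16B (1.60 ± 0.16), a paralogue of SEC16A at 1.84 CPM at 10 mM and 0.604 CPM at 1 mM glucose, the lectin LMAN2L (0.89 ± 0.058) and UBL4A (0.52 ± 0.071, SE), which serves insertion of tail-anchored proteins. By step, 15 of 24 COPII regulators and SNAREs, 12 of 19 COPI regulators and SNAREs, 16 of 25 genes of ER insertion and targeting and 8 of 13 other cargo receptors were lower. The COPI list here includes the gamma subunits COPG and COPG2. With library totals the counts were 41 lower and 18 higher. With acetate at 1 mM glucose 15 of the 81 were lower (7 with library totals) and 1 higher, against 7.09% and 6.65% of all genes tested. HSPA5 had 0.058 ± 0.05 with acetate (SE, edgeR adjusted p = 0.483).

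Genes with the most similar profile over the 12 libraries were named for 3 members by Pearson's r of log2 CPM, as a description in which the points share conditions and libraries. For SEC24D they were LARP1B (0.999), PTGS2 (0.998) and GFPT1 (0.998). For SEC61B they were the noncoding RNAs SNHG13 (0.985) and LINC00152 (0.982) and the thioredoxin gene TXN (0.982). For COPB2 they were PAPPA2 (0.984), EPB41 (0.983) and SART3 (0.982).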

How the data were processed

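The authors deposited raw counts per RefSeq transcript, as whole numbers with no normalization, for 34917 transcripts in 12 libraries of LN229 cells. The build is hg19, per the submitters' processing notes. The sources used here give no aligner, counter or strand setting. Each gene is represented by the transcript the authors marked, else by the one with the highest total. All 51 genes had a mark, and in 48 it was the highest. The fit used edgeR 4.0.16 (R 4.3.3) with filterByExpr, TMM, a quasi-likelihood F test over all 12 libraries with 1 mean per group, and Benjamini-Hochberg adjustment over 14416 genes. The common biological coefficient of variation was 8.51%. Standard errors come from the F statistic. The procedure was tested on simulated data with the same dispersion for every gene and no trend over transcript length. That test cannot show how the procedure performs on libraries with such a trend. Libraries of the same condition differed beyond sampling noise, with a chi-square per gene of 2.74 to 50.5.

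The labels give replicate numbers 1 to 4 in each condition. Deviations of same-numbered libraries from their group means correlated at 0.122 to 0.385 between 10 mM and 1 mM glucose. Between acetate and 1 mM glucose these correlations ran from −0.457 to 0.193, and between 10 mM glucose and acetate from −0.152 to 0.0443. Libraries of different number were not compared, so these values cannot show whether the numbers pair libraries. The reported fit has no term for the replicate number, and a fit with it as a block is among the alternatives.

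Alternatives were scaling by library totals or by DESeq2's size factors, other filters, limma-voom (limma 3.58.1), the Wald test of DESeq2 1.42.0, only the 8 libraries compared, the replicate block, other transcripts, leaving out libraries, and a spline over transcript length and GC content (GENCODE v29, all 51 genes matched). The members, roles, pairs, motifs and lists were chosen with earlier results of these data known. Values in every library are given for the 3 called genes per role with the largest change, the 6 smallest p for acetate, the paralogue pairs whose ratio did not overlap between at least 2 of the conditions, and others chosen after their values were seen (SRP9, SRP14). The nearest profiles use log2 of CPM plus 0.5. No coordinates of counted transcripts are given, because the annotation is on another build.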

Additional observations from a re-analysis of the deposited data

Results flagged for a closer look

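In 14 of 153 groups of 4 libraries (51 genes in 3 conditions) a gene's highest or lowest library lay far from the others of its condition by Dixon's criterion, which chance meets in about 1 of 20 groups. Acetate replicate 1, which stood apart by transcript length, held 5 of these: it was the lowest acetate library for SEC31A (259 CPM), SEC24C (190 CPM), SEC24D (169 CPM) and ARCN1 (248 CPM), and the highest for SEC61A2 (26.6 CPM). The other library that stood apart, 1 mM replicate 3, was the lowest of its condition for SEC63 (111 CPM) and COPB2 (219 CPM). At 1 mM glucose, replicate 2 was the lowest for SEC11C (152 CPM) and COPZ2 (3.24 CPM). With acetate, replicate 2 was the highest for SRP68 (293 CPM) and replicate 4 the lowest for COPZ2 (4.84 CPM). At 10 mM glucose, replicate 4 was the highest for SPCS2 (21 CPM) and TMED10 (268 CPM) and replicate 3 for COPE (96.2 CPM). The part of transcript length in these values was not tested.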

How the results depend on the processing

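For 10 mM against 1 mM glucose, 36 of 42 calls among the 51 genes kept their direction and call in all 25 alternatives. In the alternatives that kept all libraries, and without both that stood apart, the genes called lower numbered 35 to 41. Library totals gave 5 higher in place of 2. Leaving out 1 library in turn gave 38 to 41 lower and 1 to 2 higher. The direction of SRP14 reversed with the length and GC trend removed. Against 1 mM glucose its value was 0.0591 without and 0.0595 with the replicate block, and it was called in neither. Against acetate its value was 0.14 in both, and it was called higher in both. The cause was not tested. With the replicate block 39 genes were lower and 2 higher at 10 mM than at 1 mM glucose, and the block ended the call of SRP14 and no other in this comparison. For 10 mM glucose against acetate the block gave 41 lower and 2 higher, and for acetate 9 lower and 0 higher, with SEC61B (adjusted p = 0.0547) and SEC31A (adjusted p = 0.0619) lost and COPE (adjusted p = 0.0438) gained. In every comparison the labels give the samples only a shared number.

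For acetate the counts were less stable. Library totals gave 5 lower and 1 higher genes, and only the 8 libraries compared gave 3 lower and 1056 calls over all genes. Without both libraries that stood apart there were 22 lower, 1 higher and 3728 over all genes. With the length and GC trend removed there were 27 lower, 2 higher and 3964 over all genes, and with the block added 27, 2 and 3600. Leaving out 1 library in turn gave 5 to 15 lower, 0 to 1 higher and 1196 to 2956 calls over all genes. For 10 mM glucose against acetate the trend removed with the block gave 4 higher genes, and leaving out 1 library 1 to 3 higher. Among other genes of the pathway, library totals gave 18 higher for 10 mM against 1 mM glucose, 21 higher for 10 mM glucose against acetate and 7 lower for acetate. The ratios of paralogues moved by less than the spread between replicates in every alternative run (0.5 CPM added, other transcripts, 1 library left out). Motif shares in the 250 bases before the start were 13.0% of these genes and 0.667% of all genes for the UPRE. Genes of small change cannot be told from no change here, where standard errors ran from 0.044 to 0.16 on the log2 scale for 10 mM against 1 mM glucose.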
